A study of Homo sapiens with 30 samples.

Results

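The genes described here are 46 genes of DNA double-strand break repair and of the checkpoints that answer to such breaks, out of 60656 genes listed in the deposited tables. They were taken by gene symbol, from a list drawn up by function and not by measured change, though earlier results of these data were known. Each symbol matched 1 gene identifier. Their mRNA was followed in 30 RNA-seq libraries of lines derived from diffuse large B cell lymphoma, a human B cell cancer, in 10 groups of 3 replicates. Untreated cells of OCI-LY3, HT, OCI-LY19 and SUDHL5, labelled as taken at 0 h, were set against cells of the same line after 24 h in 0.2 µM doxorubicin. OCI-LY19S, the doxorubicin-sensitive parent, was set against OCI-LY19R, 1 derivative with acquired resistance, which the labels describe as maintained in 20 nM doxorubicin and taken off it 1 week earlier. No line had an untreated library at 24 h, so drug and time in culture cannot be told apart, and a single resistant derivative cannot stand for resistance in general. The labels give each group as 3 independent experiments, and nothing in them says more about the cultures, so p-values measure the spread between these libraries.

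Doxorubicin is an anthracycline that slots into DNA and traps topoisomerase II on it, which leaves double-strand breaks. Such breaks are bound by the MRE11-RAD50-NBN complex and signalled by the kinases ATM and ATR through CHEK2 and CHEK1, while MDC1, the ubiquitin ligases RNF8 and RNF168, and TP53BP1 mark the surrounding chromatin. Ends are then either joined directly by the Ku proteins, DNA-PKcs and ligase IV, or resected and repaired from the sister chromatid by BRCA1, BRCA2 and their partners, a route used in S and G2 phase. The Fanconi anemia proteins unhook crosslinked strands and feed into the same route, and many genes of this route are known to be transcribed mainly in proliferating cells.

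Levels are FPKM, read fragments scaled to gene length and library size, which can be compared between genes because length is divided out. Changes are differences of group means of log2(FPKM + 1), given ± the standard error of the fit; this scale understates the change of low genes. A gene rose or fell where the adjusted p of limma's two-sided moderated test was under 0.05 (Benjamini-Hochberg, every tested gene counted). Read totals recovered from the values ran from 16067405 to 38337869 across the lines given the drug and from 18354091 to 121769119 in the resistance pair. Of the 46 genes, 45 reached the level needed for testing in the first of these sets and 44 in the second. RAD50 missed it in both and NHEJ1 in the second. All 6 B cell markers were present in every group, with summed levels of 263 to 1507 FPKM. Markers of T and NK cells summed to 0.364 to 18.9 FPKM, myeloid markers to 0.0663 to 26.1 FPKM, and stromal, epithelial and endothelial markers to 0.0582 to 16.3 FPKM. They moved with the drug: B cell markers fell for 6 of 6 in OCI-LY3 (median -0.76), 4 fell and 1 rose in HT, 2 rose and 2 fell in OCI-LY19, and 5 of 6 rose in SUDHL5. Some markers of other cells reached the level for testing, which a marker could do through the group where it was high. Of these, 3 of 4 of T and NK cells, 1 of 2 myeloid and 2 of 2 of the third list rose in SUDHL5. In OCI-LY19, 2 of 2 myeloid markers (median 0.92) and 1 of 2 of the third list rose. In OCI-LY3, 2 of 4 of T and NK cells and 1 of 2 myeloid rose, and 1 of 2 of the third list fell. In HT, 1 of 4 of T and NK cells rose. The part of all these markers in the results was not tested.

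Before treatment, the most abundant of the 46 mRNAs were those of the end joining proteins that bind DNA ends. XRCC6, which encodes Ku70, averaged 196 FPKM over the 4 untreated lines, XRCC5, which encodes Ku80, averaged 95.2 FPKM, and PRKDC, which encodes DNA-PKcs, averaged 79.5 FPKM. The lowest tested genes were FANCC, a subunit of the Fanconi core complex, at 1.86 FPKM, and NHEJ1, the ligase IV cofactor XLF, at 0.839 FPKM. RAD50 was listed at 0.363 to 0.667 FPKM by line. In the GENCODE 29 annotation, 79.7% of the exon bases of RAD50 and 65.4% of those of NHEJ1 are shared with another gene on the same strand, so reads there may not have been assigned to them, and their levels are uncertain. Levels differed among the 4 untreated lines for 44 of 45 genes in a moderated F test, beside 90.5% of all genes tested; the exception was XRCC4 (adjusted p = 0.24), at 6.63 ± 0.415, 6.14 ± 0.905, 5.63 ± 0.339 and 5.59 ± 0.332 FPKM (mean ± SD, n = 3) in OCI-LY3, HT, OCI-LY19 and SUDHL5. HT had the highest mean for 24 of the 46 genes and SUDHL5 the lowest for 25. All SUDHL5 libraries carry a library-name tag that no library of the other lines here has, and the labels do not explain it. Levels particular to SUDHL5 therefore cannot be told apart from whatever that tag stands for.

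The widest gap between lines was that of PRKDC, with 102, 93.1 and 82.2 FPKM in OCI-LY3, 69.1, 79.1 and 69.1 in HT, 132, 111 and 123 in OCI-LY19 and 30.9, 32.6 and 31.1 in SUDHL5. The ratio of the highest mean to the lowest was 3.86, and no SUDHL5 library came near those of the other lines. RBBP8, which encodes the resection factor CtIP, followed with means of 40.2 ± 2.21 FPKM in OCI-LY3, 27.6 ± 0.623 in HT, 18.5 ± 1.01 in OCI-LY19 and 10.5 ± 0.265 in SUDHL5. CHEK1, the checkpoint kinase downstream of ATR, was at 20.4 ± 0.57 FPKM in OCI-LY19 and 15.9 ± 1.54 in OCI-LY3, against 9.12 ± 0.189 in HT and 6.25 ± 0.429 in SUDHL5. The lines therefore entered treatment at different levels of the same genes, with no single order of lines. The ubiquitin ligase gene RNF8 was highest in HT and lowest in OCI-LY19 (ratio 3.62), and RAD51C, a gene of homologous recombination, was likewise highest in HT and lowest in OCI-LY19 (ratio 3.39).

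**Figure D1:**
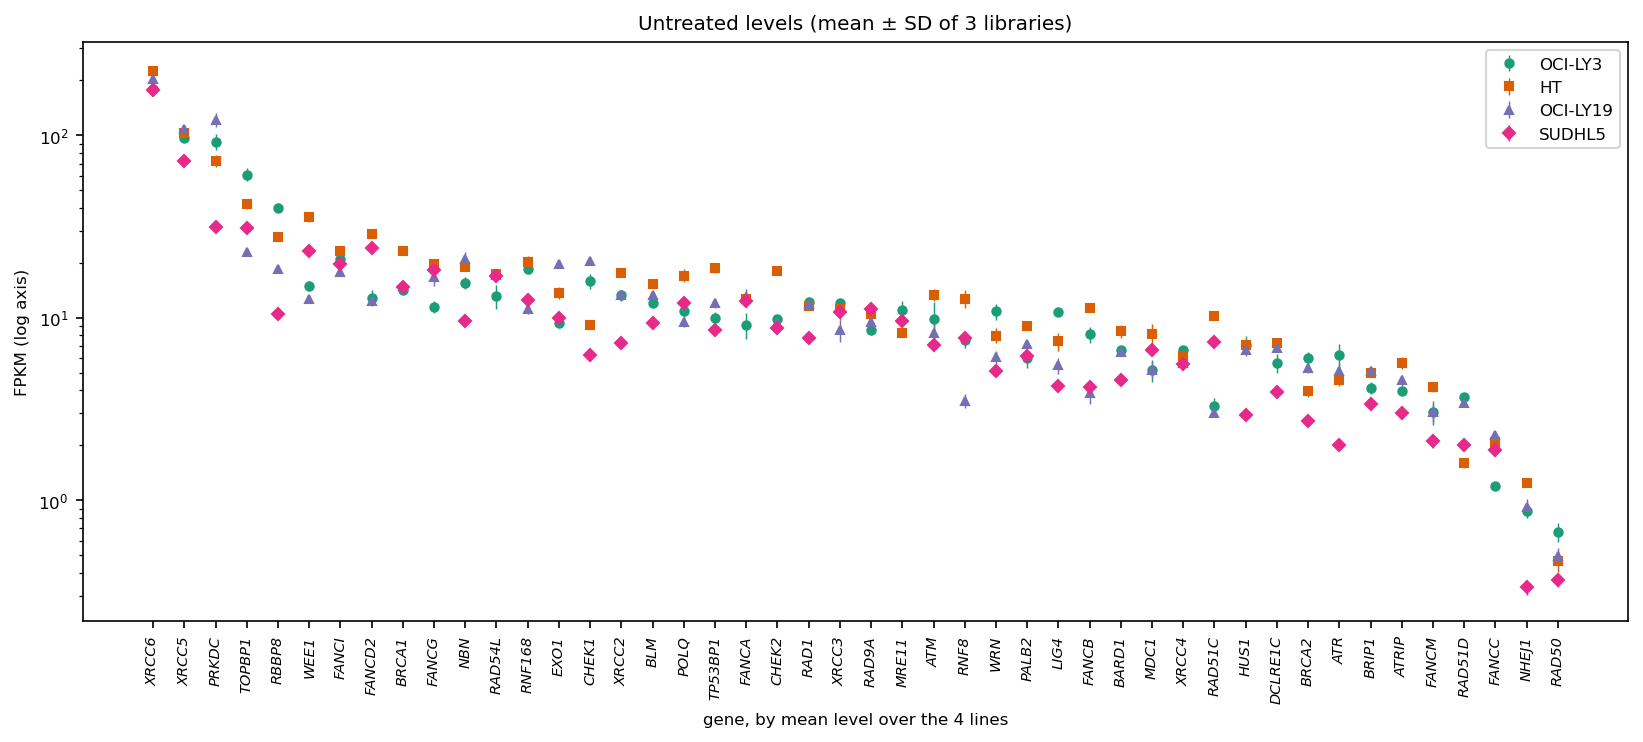
Level of each of the 46 genes in the 4 untreated lines, as mean ± SD of 3 libraries, on a logarithmic FPKM axis with genes ordered by their mean over the lines. XRCC6, XRCC5 and PRKDC stand above the rest, and SUDHL5 has the lowest mean for 25 genes.

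In OCI-LY3, several genes of resection, homologous recombination and the Fanconi route were higher after doxorubicin and several end joining genes were lower. Of 45 genes, 24 rose and 10 fell, where 40.4% of all genes tested rose and 14.3% fell. The median change was 0.26 over the 45 genes and 0.16 over all genes tested. The largest rises were those of FANCG (1.28), BRIP1 (1.25) and BRCA1 (1.06), and the largest falls those of NBN (-0.65), LIG4 (-0.46) and XRCC6 (-0.41). Libraries of the 2 groups did not overlap for 32 of the 45 genes, against 57.4% of all genes. The upward count depended on the scaling: with median-of-ratios scaling, which brought the median of all genes from 0.16 to 0.006, 11 genes rose and 14 fell, and with quantile normalization 17 rose and 11 fell. BRCA1, BRCA2, BRIP1, EXO1, FANCA, FANCD2, FANCG, FANCI, POLQ, RAD54L and TP53BP1 rose under both. Of all genes called in OCI-LY3 under these scalings, 51.5% and 50.9% were upward. For no line were the shares of all genes tested that rose or fell under them counted. The shares given above are for the FPKM scale and are no baseline for the rescaled counts.

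In HT, fewer of the genes moved and the changes were smaller. Of 45 genes, 14 rose and 6 fell, where 22.9% of all genes rose and 9.41% fell, and the median change was 0.17 against 0.06 over all genes. BRCA1 (0.58), EXO1 (0.53) and BRIP1 (0.47) rose the most, and WEE1 (-0.73), MDC1 (-0.48) and DCLRE1C (-0.39) fell the most. Libraries did not overlap for 25 of 45 genes, against 42.2% of all genes. The count of rises was 8 with median-of-ratios scaling, 7 with quantile normalization, 8 with HT fitted alone, and 9 without untreated replicate 1, without untreated replicate 2 or without treated replicate 3, while falls stayed between 5 and 8. Calls held under every alternative for 10 of the 20 genes: BRCA1, BRIP1, DCLRE1C, EXO1, FANCD2, MDC1, NBN, RAD9A, RBBP8 and WEE1. Same-numbered HT libraries deviated together, and with the replicate number as a block 15 genes rose and 6 fell: PALB2 (adjusted p = 0.0997) and XRCC6 (0.0509) no longer passed, whereas TP53BP1 (0.16, adjusted p = 0.0355) and FANCG (0.23, 0.027) rose and XRCC3 (-0.22, 0.0132) fell.

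In OCI-LY19, nearly the whole set was lower after doxorubicin. Of 45 genes, 36 fell and 4 rose, where 23.7% of all genes fell and 34.5% rose, and the median change was -0.45 against 0.08 over all genes. CHEK1 fell the most (-1.27), followed by XRCC6 (-0.93), BRCA1 (-0.87) and BLM (-0.86). The 4 genes that rose were ATM (0.70), RAD51C (0.65), LIG4 (0.45) and PALB2 (0.32). Libraries of the 2 groups did not overlap for 40 of 45 genes, against 61.2% of all genes. ATRIP (-0.18, adjusted p = 0.0547), RNF168 (-0.16, 0.0908), XRCC3 (-0.08, 0.609), TP53BP1 (-0.04, 0.681) and HUS1 (0.04, 0.705) did not pass. Treated replicate 1 was the lowest library for CHEK1, BRCA1, BLM and EXO1, and without it 33 genes fell. The number of falls ranged from 29, with OCI-LY19 fitted alone, to 38 under the other settings tried.

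In SUDHL5, the direction was again downward, by smaller amounts. Of 45 genes, 27 fell and 1 rose, where 19.9% of all genes fell and 18.6% rose, and the median change was -0.30 against 0.001 over all genes. The count of falls was 24 with median-of-ratios scaling, 24 with quantile normalization and 21 to 23 with any 1 library left out. MDC1 (-0.62), RAD54L (-0.61) and CHEK1 (-0.58) fell the most, and RAD51C (0.47) was the gene that rose. Libraries did not overlap for 38 of 45 genes, against 59.9% of all genes. Of the 27 genes that fell here, 25 also fell in OCI-LY19, HUS1 and RNF168 being the others. In OCI-LY19, 36 of the 45 genes fell, and the share of all genes that fell in both lines was not counted. Bulk values of this kind cannot tell fewer cells with a given mRNA from less of that mRNA per cell.

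**Figure D2:**
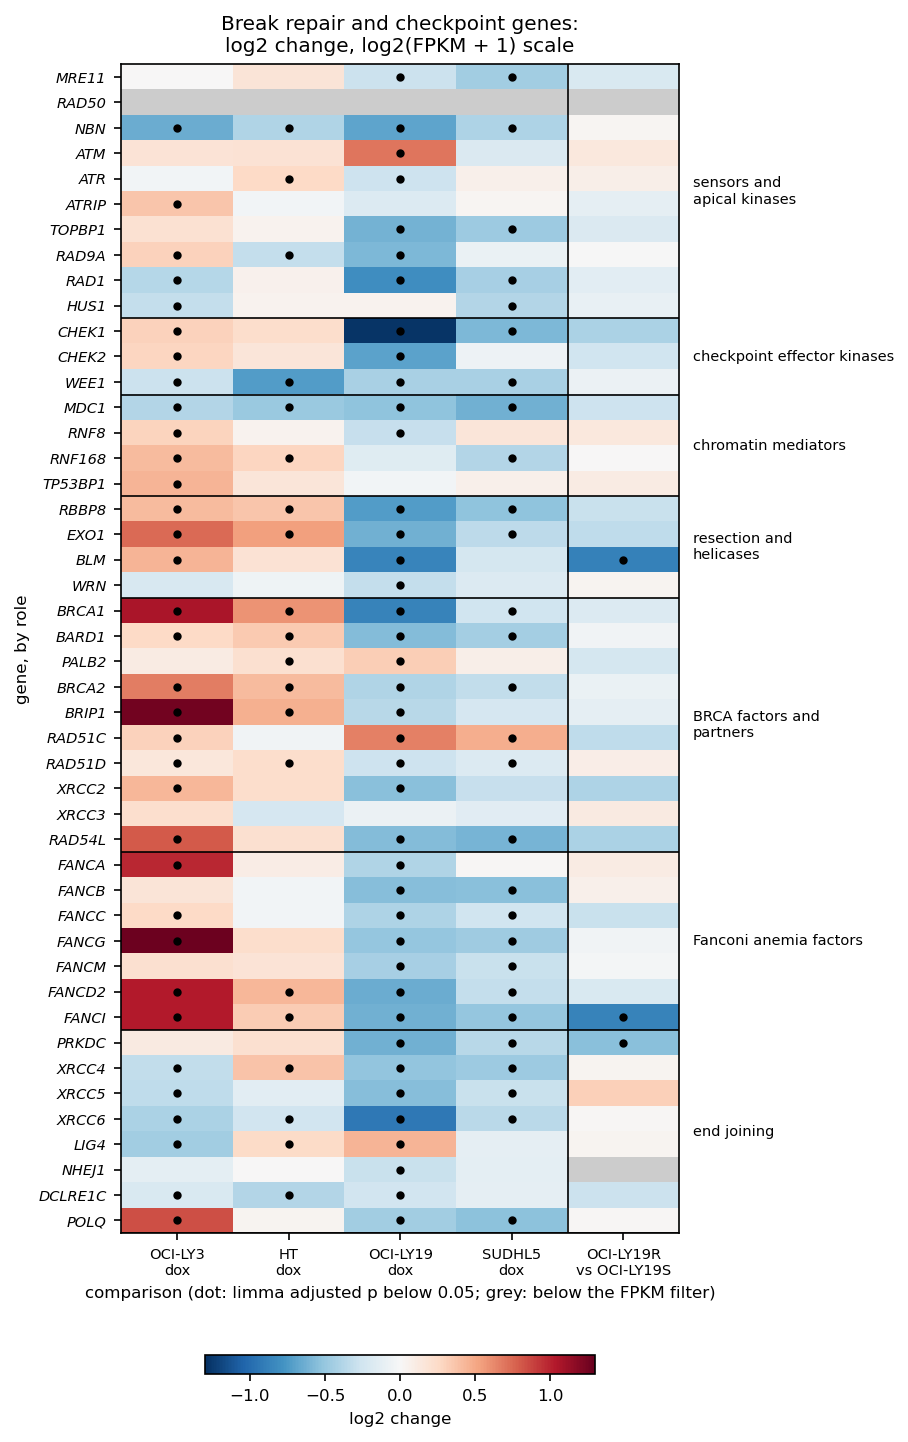
Change of each gene, by role, in the 4 doxorubicin comparisons and in OCI-LY19R against OCI-LY19S, as the colour of the log2 difference on the log2(FPKM + 1) scale, with a dot where limma's adjusted p was below 0.05 and grey where the gene was below the level needed for testing. Red cells dominate OCI-LY3, where 24 genes rose, 11 with median-of-ratios scaling, and blue cells dominate OCI-LY19 and SUDHL5, where 36 and 27 fell. With 1 library left out, 33 to 37 fell in OCI-LY19 and 21 to 23 in SUDHL5.

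Tests of the difference between responses set OCI-LY19 apart from OCI-LY3 and HT. Against OCI-LY3, the response in OCI-LY19 was lower for 30 of 45 genes and higher for 4, where 29.0% and 18.7% of all genes were, and the largest differences were those of BRCA1 (-1.93 ± 0.14), FANCG (-1.78 ± 0.15) and FANCD2 (-1.67 ± 0.15). Against HT it was lower for 32 and higher for 3, where 22.6% and 22.6% of all genes were, led by CHEK1 (-1.5 ± 0.15) and BRCA1 (-1.45 ± 0.14). Against SUDHL5 it was lower for 11 and higher for 3, where 17.4% and 26.5% of all genes were. Those 11 were CHEK1, BLM, CHEK2, BRCA1, XRCC6, RAD9A, RNF8, FANCA, RAD1, ATR and XRCC5, and HUS1, LIG4 and ATM were the 3. Of the 11, ATR and FANCA did not pass without the filter (adjusted p = 0.0562 and 0.0665) or on the TPM scale (0.116 and 0.112), among other settings. XRCC5 did not pass with quantile normalization (-0.04, adjusted p = 0.786) or on the TPM scale (0.108). The first 2 counts of lower responses stayed between 27 and 34 under every setting tried, the scalings included; the third was 18 with quantile normalization.

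Over all 4 lines together, a moderated F test called the response different for 39 of 45 genes, beside 72.2% of all genes tested. The 6 genes for which it did not pass were NBN (adjusted p = 0.0749), XRCC3 (0.0798), DCLRE1C (0.113), PALB2 (0.16), WRN (0.30) and MDC1 (0.42). With the replicate block XRCC3 (0.00263), NBN (0.0399) and DCLRE1C (0.0444) passed. Under median-of-ratios and quantile scaling NBN (0.00378 and 0.0413), DCLRE1C (0.0139 and 0.01) and WRN (0.0418 and 0.0297) passed, as PALB2 did with quantile normalization (0.0362). In 20 genes a rise in OCI-LY3 went with a fall in OCI-LY19, a number that was 10 under median-of-ratios and 16 under quantile scaling. Shares of all genes with this pattern or those that follow were not counted. Taken singly, 40.4% of all genes rose in OCI-LY3 and 23.7% fell in OCI-LY19. Rises in both OCI-LY3 and HT with falls in both OCI-LY19 and SUDHL5 were seen for BARD1, BRCA1, BRCA2, EXO1, FANCD2, FANCI, RAD51D and RBBP8, 8 genes in all; with median-of-ratios scaling FANCD2 alone and with quantile normalization FANCI, RBBP8 and RNF168 had this pattern. MDC1, NBN, WEE1 and XRCC6 fell in all 4 lines. MDC1, NBN and WEE1 did so under both of those scalings as well, and XRCC6 did not with quantile normalization. Across the 45 genes, the log2 changes of OCI-LY3 and HT had a Pearson r of 0.59 and a Spearman rho of 0.52, and those of OCI-LY19 and SUDHL5 had 0.59 and 0.52. The other 4 of the 6 pairs of lines lay between -0.15 and -0.006 in r. These are descriptions across genes, which share libraries and are not independent.

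**Figure D3:**
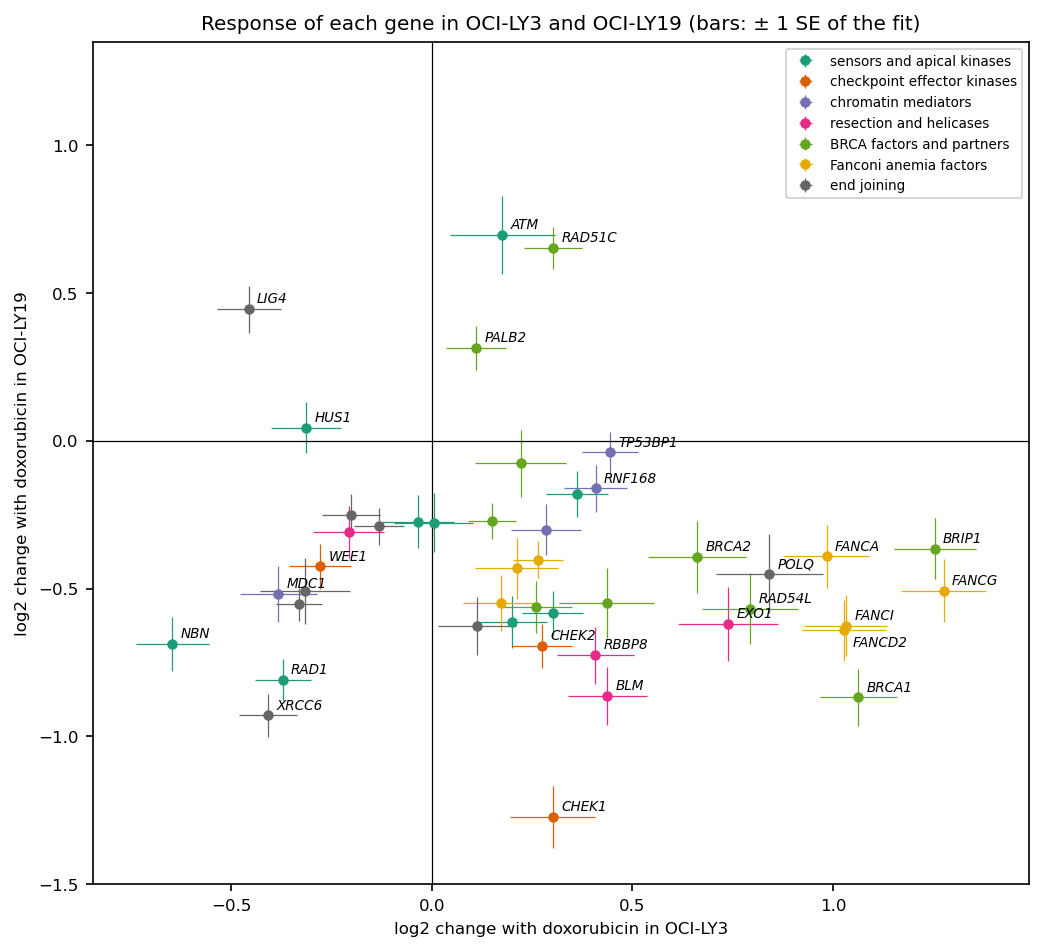
Log2 change of each of the 45 tested genes with doxorubicin in OCI-LY3 (horizontal) and in OCI-LY19 (vertical), coloured by role, with bars of ± 1 standard error of the fit. The lower right quadrant holds the genes that were higher in OCI-LY3 and lower in OCI-LY19; BRCA1, FANCG and BRIP1 lie farthest to the right, and 10 of the 20 genes that passed in both directions did so with median-of-ratios scaling.

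Promoter sequences of 39 of the 46 genes were matched by symbol in the RefSeq table of GRCh38.p14; FANCI, HUS1, WEE1, NBN, PRKDC, WRN and XRCC5 were not matched. Each window holds the bases just before the annotated start and the first bases after it. E2F proteins are transcription factors of S-phase genes, and 4 spellings of their site (TTTCCCGC, TTTGGCGC, TTTCGCGC and TTTGCCGC, searched on both strands) were found in 7 of the 39 windows (17.9%), against 3.33% of 27305 windows in the table. The 7 were EXO1, FANCA, FANCC, FANCD2, TOPBP1, XRCC2 and XRCC6. The letters TTTGAA, the core of the cell cycle homology region of G2/M genes, were in 5 of 39 (12.8%) against 15.4%, and CCAAT was in 19 (48.7%) against 35.7%; none of these spellings contains another. A match describes the letters alone. Windows shown are FANCD2, EXO1 and XRCC2, which rose in OCI-LY3 and fell in OCI-LY19, and XRCC6, which fell in all 4 lines. RAD51C, also shown, rose in 3 lines, and its window holds none of the E2F spellings. The rise of XRCC2 did not pass with median-of-ratios scaling. The falls of EXO1 and XRCC2 did not pass with OCI-LY19 fitted alone, nor that of XRCC6 in HT with quantile normalization. Capitals mark the E2F spellings, and sequences read 5′ to 3′ on the strand of the gene. FANCD2, at chr3:10026187-10026486 on the plus strand, and EXO1, at chr1:241847954-241848253 on the plus strand, hold 1 match each.
FANCD2: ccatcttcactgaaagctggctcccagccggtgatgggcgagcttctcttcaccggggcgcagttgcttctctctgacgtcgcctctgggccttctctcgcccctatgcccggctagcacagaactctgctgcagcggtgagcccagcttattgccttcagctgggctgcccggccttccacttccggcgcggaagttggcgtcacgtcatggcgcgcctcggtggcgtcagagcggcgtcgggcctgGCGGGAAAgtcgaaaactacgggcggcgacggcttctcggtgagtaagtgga
EXO1: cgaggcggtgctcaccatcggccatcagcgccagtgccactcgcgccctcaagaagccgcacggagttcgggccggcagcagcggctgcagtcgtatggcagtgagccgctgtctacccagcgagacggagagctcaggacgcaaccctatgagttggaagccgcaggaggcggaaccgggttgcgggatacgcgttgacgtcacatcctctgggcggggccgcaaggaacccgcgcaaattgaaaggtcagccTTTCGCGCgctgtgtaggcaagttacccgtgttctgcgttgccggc
XRCC2 lies at chr7:152676092-152676391 on the minus strand, XRCC6 at chr22:41621045-41621344 on the plus strand and RAD51C at chr17:58692323-58692622 on the plus strand.
XRCC2: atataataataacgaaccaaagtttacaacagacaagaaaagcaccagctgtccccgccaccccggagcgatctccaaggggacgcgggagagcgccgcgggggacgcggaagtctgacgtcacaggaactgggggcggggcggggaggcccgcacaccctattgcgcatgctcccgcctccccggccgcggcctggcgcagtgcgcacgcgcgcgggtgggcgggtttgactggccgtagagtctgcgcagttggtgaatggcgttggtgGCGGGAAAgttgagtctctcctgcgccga
XRCC6: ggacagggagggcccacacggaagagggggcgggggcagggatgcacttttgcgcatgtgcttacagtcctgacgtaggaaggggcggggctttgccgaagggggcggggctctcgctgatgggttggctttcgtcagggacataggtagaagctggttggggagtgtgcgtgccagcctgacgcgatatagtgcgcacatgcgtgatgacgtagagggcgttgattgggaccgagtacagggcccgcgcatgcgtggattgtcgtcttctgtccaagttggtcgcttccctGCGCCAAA
RAD51C: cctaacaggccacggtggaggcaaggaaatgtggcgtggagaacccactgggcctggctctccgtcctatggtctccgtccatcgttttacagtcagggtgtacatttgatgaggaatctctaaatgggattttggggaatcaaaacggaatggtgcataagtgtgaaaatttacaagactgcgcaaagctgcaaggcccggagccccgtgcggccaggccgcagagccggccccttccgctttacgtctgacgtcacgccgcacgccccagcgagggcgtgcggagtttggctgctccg

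Genes that sense breaks and start the signal did not move together. Of 9 tested, 2 rose and 3 fell in OCI-LY3 (none and 5 under median-of-ratios scaling), 1 rose and 2 fell in HT (none and 2 under either scaling), 1 rose and 6 fell in OCI-LY19, and none rose and 5 fell in SUDHL5. NBN, the nibrin subunit that brings the MRE11 complex to breaks, went from 15.7, 16.6 and 14.4 FPKM in the untreated OCI-LY3 libraries to 9.21, 11.6 and 8.2 after doxorubicin (-0.65 ± 0.09, adjusted p = 6.14e-06), and from 18.3, 19.4 and 19.1 to 13.4, 15.7 and 13.8 in HT (-0.39 ± 0.09, adjusted p = 0.00294). In both lines every treated library lay under every untreated one, and NBN also fell in OCI-LY19 (-0.69 ± 0.09, adjusted p = 2.51e-06) and SUDHL5 (-0.40 ± 0.09, adjusted p = 0.00148). RAD1, a ring subunit of the 9-1-1 clamp that helps activate ATR, went from 12.3, 11.7 and 12.5 to 9.35, 10.2 and 8.16 FPKM in OCI-LY3 (-0.37 ± 0.07, adjusted p = 0.000142) and from 12, 11.2 and 12.5 to 5.56, 7.07 and 6.55 in OCI-LY19 (-0.81 ± 0.07, adjusted p = 8.24e-09). Its fall was larger in OCI-LY19 than in OCI-LY3 (difference -0.44 ± 0.10, adjusted p = 0.00108). RAD9A, another subunit of that clamp, moved in opposite directions. It rose in OCI-LY3 (0.30 ± 0.08, adjusted p = 0.00215), a call that did not pass under median-of-ratios (adjusted p = 0.612) or quantile (0.169) scaling. In HT it went from 11.5, 10.1 and 9.72 to 8.18, 8.08 and 8.34 FPKM (-0.31 ± 0.08, adjusted p = 0.00388), with no overlap, and in OCI-LY19 it fell by 0.58.

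ATM, the apical kinase of the break response, was the exception among the sensors of OCI-LY19. It stood at 9.54, 7.76 and 7.49 FPKM untreated and at 14.6, 11.8 and 15.7 after doxorubicin (0.70 ± 0.13, adjusted p = 0.000133), so all 3 treated libraries lay above all untreated ones. Its changes in OCI-LY3 (0.18, adjusted p = 0.279), HT (0.19, 0.312) and SUDHL5 (-0.18, 0.304) did not pass, and the response in OCI-LY19 was higher than in SUDHL5 (adjusted p = 0.000746). The differences from OCI-LY3 (adjusted p = 0.0258) and HT (0.0304) passed as well, but not without the filter on low values (0.0529 and 0.0617) or without treated OCI-LY19 replicate 3 (0.0732 and 0.0842), among other settings. ATR, the kinase that answers to single-stranded DNA, rose in HT (0.25 ± 0.09, adjusted p = 0.0347) and fell in OCI-LY19 (-0.27 ± 0.09, adjusted p = 0.013); the call in HT did not pass under 9 of the alternatives, the scalings among them, and that in OCI-LY19 did not pass without untreated replicate 1 (adjusted p = 0.0854). In SUDHL5 the gene of TOPBP1, which activates ATR, went from 31.1, 30.4 and 31.4 to 22.4, 21.8 and 21.8 FPKM (-0.47 ± 0.09, adjusted p = 0.000222). The nuclease gene MRE11 went from 9.51, 9.35 and 9.85 to 7.26, 6.85 and 6.17 FPKM there (-0.45 ± 0.10, adjusted p = 0.00117). Neither gene's groups overlapped. ATRIP, the partner of ATR, rose in OCI-LY3 alone (0.36 ± 0.08, adjusted p = 0.00059); this call was lost under median-of-ratios (adjusted p = 0.115) and quantile (0.468) scaling, and 27.9% of its exon bases are shared with TREX1.

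The 3 effector kinases of the checkpoints all fell in OCI-LY19. CHEK1 libraries there read 20.5, 19.8 and 20.9 FPKM untreated and 6.07, 9.11 and 8.76 after doxorubicin (-1.27 ± 0.11, adjusted p = 5.07e-09), the largest change of the 45 genes in that line. The lowest treated library was replicate 1, and even the highest was under every untreated one. In SUDHL5, CHEK1 went from 5.8, 6.65 and 6.28 to 3.57, 3.84 and 4.09 FPKM (-0.58 ± 0.11, adjusted p = 0.000182). In OCI-LY3 it went the other way, from 17.5, 14.5 and 15.7 to 20.3, 19.1 and 19.9 FPKM (0.30 ± 0.11, adjusted p = 0.0205). That rise did not pass under median-of-ratios (adjusted p = 0.824) or quantile (0.124) scaling, or without untreated replicate 2 (0.0933), untreated replicate 3 (0.0507) or treated replicate 1 (0.0599). CHEK2, the effector of ATM, went from 8.92, 9.4 and 9.61 to 4.45, 6.16 and 5.65 FPKM in OCI-LY19 (-0.69 ± 0.07, adjusted p = 1.75e-07), without overlap, and its value in SUDHL5 was -0.07 (adjusted p = 0.517). WEE1, the kinase that holds CDK1 inactive before mitosis, fell in all 4 lines. It went from 33.7, 35 and 37.9 to 19, 20.5 and 23.8 FPKM in HT (-0.73 ± 0.08, adjusted p = 1.47e-06), from 23.1, 23.7 and 23.1 to 17.2, 17.5 and 16.9 in SUDHL5 (-0.42 ± 0.08, adjusted p = 0.000233) and from 15.7, 15.2 and 13.9 to 12.2, 13.5 and 10.9 in OCI-LY3 (-0.28 ± 0.08, adjusted p = 0.00471). Its groups overlapped in none of these lines. The OCI-LY3 call of WEE1 did not pass with that line fitted alone (adjusted p = 0.0519).

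Of the 4 chromatin mediators, 3 rose and 1 fell in OCI-LY3 (1 and 1 under median-of-ratios scaling), 1 rose and 1 fell in HT, and 2 fell in each of OCI-LY19 and SUDHL5. MDC1, the scaffold that reads phosphorylated H2AX, fell in all 4 lines. It went from 6.2, 6.69 and 7.06 to 3.98, 3.9 and 4.03 FPKM in SUDHL5 (-0.62 ± 0.09, adjusted p = 3.01e-05), from 5.77, 5.1 and 4.7 to 3.16, 3.17 and 3.62 in OCI-LY19 (-0.52 ± 0.09, adjusted p = 0.000101) and from 8.17, 9.21 and 7.13 to 5.1, 5.7 and 5.84 in HT (-0.48 ± 0.09, adjusted p = 0.000673). It also fell in OCI-LY3 (-0.38 ± 0.09, adjusted p = 0.00196), and its 4 groups of treated libraries lay under their untreated ones. RNF168, the ligase that ubiquitinates H2A at breaks, went from 19.2, 19.2 and 17.3 to 25.4, 26.1 and 23.4 FPKM in OCI-LY3 (0.41 ± 0.08, adjusted p = 0.000203) and from 19.4, 18.9 and 22 to 25.3, 22 and 26.8 in HT (0.28 ± 0.08, adjusted p = 0.0101), while in SUDHL5 it went from 13.2, 12.1 and 12.1 to 10.1, 8.63 and 9.41 (-0.38 ± 0.08, adjusted p = 0.000682). Groups were apart in OCI-LY3 and SUDHL5, and in HT the lowest treated library only just cleared the highest untreated one. The HT call was lost without untreated replicate 2 (adjusted p = 0.05) or treated replicate 3 (0.063) and with HT fitted alone (0.0879). With median-of-ratios scaling RNF168 passed in neither OCI-LY3 (0.172) nor HT (0.093). RNF8, which acts before RNF168, went from 3.59, 3.17 and 3.77 to 2.36, 3.11 and 2.55 FPKM in OCI-LY19 (-0.30 ± 0.09, adjusted p = 0.00602), a narrow gap. This call did not pass with OCI-LY19 fitted alone (adjusted p = 0.0654). TP53BP1, which shields ends from resection, went from 10.2, 10.6 and 9.0 to 14.2, 14.3 and 13.1 FPKM in OCI-LY3 (0.44 ± 0.07, adjusted p = 2.07e-05) without overlap and under every alternative; 28.7% of its exon bases overlap a gene on the other strand.

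Of the 4 resection genes, 3 rose in OCI-LY3 (1 rose and 1 fell under median-of-ratios scaling), 2 rose in HT, 4 fell in OCI-LY19 and 2 fell in SUDHL5. EXO1, the exonuclease of long-range resection, went from 9.51, 9.25 and 9.42 to 16.4, 17 and 15.6 FPKM in OCI-LY3 (0.74 ± 0.13, adjusted p = 5.04e-05) and from 12.8, 14.9 and 13.4 to 18.8, 21.8 and 20.2 in HT (0.53 ± 0.13, adjusted p = 0.00296). Both rises were free of overlap. EXO1 fell in OCI-LY19 (-0.62 ± 0.13, adjusted p = 0.000278), where 1 treated library at 8.58 FPKM lay far under the others at 14.8, and in SUDHL5 it went from 9.43, 10.2 and 10.2 to 7.31, 7.85 and 7.83 FPKM (-0.34 ± 0.13, adjusted p = 0.0389). The SUDHL5 call did not pass when any 1 of its 6 libraries was left out (adjusted p 0.0531 to 0.112). The OCI-LY19 call did not pass with that line fitted alone (adjusted p = 0.0533). RBBP8 went from 27.1, 28.3 and 27.4 to 35.1, 33 and 38.8 FPKM in HT (0.36 ± 0.10, adjusted p = 0.00829), from 19.5, 17.5 and 18.5 to 8.56, 12.7 and 11.5 in OCI-LY19 (-0.73 ± 0.10, adjusted p = 2.71e-06) and from 10.6, 10.2 and 10.6 to 7.22, 7.1 and 6.62 in SUDHL5 (-0.52 ± 0.10, adjusted p = 0.000239). It was higher in every treated HT library and lower in every treated library of the other 2 lines. BLM, the helicase lost in Bloom syndrome, went from 12.4, 12 and 11.5 to 16.4, 17 and 16.3 FPKM in OCI-LY3 (0.44 ± 0.10, adjusted p = 0.00091; adjusted p = 0.171 with median-of-ratios scaling) and from 12.9, 12.9 and 13.9 to 5.06, 7.52 and 8.29 in OCI-LY19 (-0.86 ± 0.10, adjusted p = 4e-07). WRN, the helicase of Werner syndrome, fell in OCI-LY19 (-0.31 ± 0.09, adjusted p = 0.00506). In OCI-LY3 it passed as a fall under median-of-ratios (-0.46, adjusted p = 0.00015) and quantile (-0.36, 0.00135) scaling, with the replicate block (0.0272) and under further alternatives, and in SUDHL5 with that line fitted alone (-0.18, 0.036).

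Of the 10 BRCA factors and partners, 8 rose in OCI-LY3 (4 under median-of-ratios scaling) and 6 rose in HT (2 with quantile normalization), with no fall in either, while 2 rose and 7 fell in OCI-LY19 and 1 rose and 5 fell in SUDHL5. In HT 5 rose and 1 fell under median-of-ratios scaling, the fall being that of XRCC3, which also fell there with the replicate block. BRIP1, the helicase partner of BRCA1, went from 4.43, 4.21 and 3.78 to 11.4, 12.2 and 10.2 FPKM in OCI-LY3 (1.25 ± 0.10, adjusted p = 6.27e-09) and from 4.83, 5.0 and 5.05 to 6.95, 7.62 and 7.16 in HT (0.47 ± 0.10, adjusted p = 0.00162). BRCA1, the ubiquitin ligase that promotes resection, went from 14.6, 14.4 and 13.6 to 31.3, 32.9 and 28.2 FPKM in OCI-LY3 (1.06 ± 0.10, adjusted p = 2.32e-08), from 22.1, 24.7 and 23.3 to 34.3, 37.8 and 34.4 in HT (0.58 ± 0.10, adjusted p = 0.000138) and from 15.3, 14.8 and 14.5 to 6.0, 8.77 and 8.64 in OCI-LY19 (-0.87 ± 0.10, adjusted p = 2.47e-07). Untreated BRCA1 libraries of OCI-LY3 and OCI-LY19 overlapped, at 14.2 ± 0.563 and 14.9 ± 0.421 FPKM (mean ± SD, n = 3), and their treated libraries did not. In SUDHL5 its fall of 0.26 (adjusted p = 0.0389) did not pass under 8 alternatives, both scalings among them. RAD54L, a motor protein of homologous recombination, went from 17, 16.8 and 17.1 to 10.7, 10.8 and 10.9 FPKM in SUDHL5 (-0.61 ± 0.12, adjusted p = 0.00044), rose in OCI-LY3 (0.79 ± 0.12, adjusted p = 1.43e-05) and fell in OCI-LY19 (-0.57 ± 0.12, adjusted p = 0.000438).

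RAD51C departed from the rest of its group. It went from 3.05, 2.95 and 3.02 to 4.78, 5.12 and 6.08 FPKM in OCI-LY19 (0.65 ± 0.07, adjusted p = 2.32e-07) and from 7.49, 7.43 and 7.16 to 11.2, 10.2 and 10.5 in SUDHL5 (0.47 ± 0.07, adjusted p = 2.94e-05), the 2 lines in which most of the genes fell. No treated library of these lines overlapped an untreated one. Its rise in OCI-LY3 (0.30 ± 0.07, adjusted p = 0.00138) did not pass with median-of-ratios scaling (adjusted p = 0.41) and was -0.004 with quantile normalization (0.992), and its value in HT was -0.05 (adjusted p = 0.697). PALB2, which bridges BRCA1 and BRCA2, rose in OCI-LY19 (0.32 ± 0.07, adjusted p = 0.0012), and its value in HT was 0.21 ± 0.07 (adjusted p = 0.0388). That HT call was lost with the block, under both scalings (0.267 and 0.231), without the filter (0.0688) and with any 1 of the 6 libraries left out (0.0534 to 0.114). BARD1, which forms a dimer with BRCA1, fell in OCI-LY19 (-0.56 ± 0.09, adjusted p = 1.97e-05) and SUDHL5 (-0.44 ± 0.09, adjusted p = 0.000555) and rose in HT (0.34 ± 0.09, adjusted p = 0.00677; 0.0534 without treated replicate 3, 0.0504 with quantile normalization and 0.0804 with HT fitted alone). XRCC3 did not pass in any of the 4 lines, with changes between -0.22 and 0.22. It passed as a rise in OCI-LY3 (adjusted p = 0.00698) and a fall in HT (0.0132) with the replicate block, as a fall in HT with median-of-ratios scaling (-0.30, 0.0388) and as a fall in SUDHL5 with that line fitted alone (-0.15, 0.0125). For this gene 76.7% of the exon bases overlap a gene on the other strand, and the strand setting of the counting is not given.

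Fanconi anemia genes split between OCI-LY3 and OCI-LY19: 5 of 7 rose in the first, 4 with median-of-ratios scaling, and 7 of 7 fell in the second, as did 6 of 7 in SUDHL5. FANCG, a core complex subunit, went from 11.5, 10.7 and 12.4 to 31.7, 27.2 and 29 FPKM in OCI-LY3 (1.28 ± 0.11, adjusted p = 8.96e-09), the largest rise among the 45 genes. FANCI, which pairs with FANCD2 in the complex ubiquitinated at crosslinks, went from 23.4, 17.9 and 21.6 to 45.8, 43.5 and 41.9 FPKM in OCI-LY3 (1.03 ± 0.10, adjusted p = 8.8e-08), from 22.8, 22.4 and 24.3 to 29.1, 27.9 and 31 in HT (0.33 ± 0.10, adjusted p = 0.0206) and from 16.9, 17.9 and 18.6 to 8.69, 12.2 and 13.1 in OCI-LY19 (-0.63 ± 0.10, adjusted p = 3.44e-05). The HT call was lost with median-of-ratios scaling (adjusted p = 0.122) and without untreated replicate 1, untreated replicate 2 or treated replicate 3 (0.0594 to 0.0817). In SUDHL5 FANCI went from 19.5, 19.5 and 20.1 to 13.6, 13.7 and 13.7 FPKM (-0.50 ± 0.10, adjusted p = 0.000699). FANCD2 went from 29.6, 27.9 and 28.3 to 38.7, 37.6 and 40.4 FPKM in HT (0.43 ± 0.10, adjusted p = 0.00362) and from 11.9, 12.9 and 12.5 to 5.67, 9.02 and 8.48 in OCI-LY19 (-0.64 ± 0.10, adjusted p = 2.79e-05). FANCB, another core subunit, went from 3.91, 4.12 and 4.42 to 2.52, 2.63 and 2.48 FPKM in SUDHL5 (-0.54 ± 0.09, adjusted p = 0.000139). Treated and untreated libraries were apart in each of these comparisons. FANCA rose in OCI-LY3 (0.98 ± 0.11, adjusted p = 2.37e-07) and fell in OCI-LY19 (-0.39 ± 0.11, adjusted p = 0.00386), and its value in SUDHL5 was 0.02 (adjusted p = 0.95).

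More end joining genes fell than rose in OCI-LY3 as well as in OCI-LY19. Of 8 tested, 5 fell and 1 rose in OCI-LY3 (6 and 1 under median-of-ratios, 4 and 2 under quantile scaling), 2 fell and 2 rose in HT (3 and none under median-of-ratios, 1 and none under quantile scaling), 7 fell and 1 rose in OCI-LY19, and 5 fell in SUDHL5. Of the falls in OCI-LY3, that of LIG4 alone held under every alternative. With quantile normalization XRCC6 (adjusted p = 0.247) and XRCC5 (0.0916) were lost there. XRCC4 was lost without untreated replicate 1 (0.0817), and DCLRE1C with OCI-LY3 fitted alone (0.17), among other settings. XRCC6 had the largest fall of the group, from 206, 189 and 218 to 102, 115 and 103 FPKM in OCI-LY19 (-0.93 ± 0.07, adjusted p = 2.17e-09). No treated library reached the lowest untreated one. PRKDC followed, from 132, 111 and 123 to 70.1, 87.7 and 78.1 FPKM (-0.63 ± 0.10, adjusted p = 1.68e-05). LIG4, the ligase that seals the joined ends, went from 11.4, 10.4 and 10.6 to 6.94, 8.37 and 7.52 FPKM in OCI-LY3 (-0.46 ± 0.08, adjusted p = 7.46e-05) but rose in OCI-LY19 (0.45 ± 0.08, adjusted p = 8.53e-05), and the responses of these lines differed by 0.90 ± 0.11 (adjusted p = 2.32e-06). POLQ encodes the polymerase of microhomology-mediated joining, a route apart from ligase IV. It went from 12, 10.5 and 10.3 to 21.7, 21.9 and 17.6 FPKM in OCI-LY3 (0.84 ± 0.13, adjusted p = 2.4e-05) and from 11.8, 11.6 and 12.7 to 8.16, 8.36 and 7.51 in SUDHL5 (-0.53 ± 0.13, adjusted p = 0.00328), with no overlap in either. XRCC4, the scaffold of ligase IV, went from 6.24, 5.19 and 6.99 to 8.19, 6.97 and 9.68 FPKM in HT (0.38 ± 0.11, adjusted p = 0.0141), with overlap, and from 5.27, 5.57 and 5.93 to 3.72, 4.16 and 3.41 in SUDHL5 (-0.47 ± 0.11, adjusted p = 0.00218). The HT call was lost with median-of-ratios scaling (adjusted p = 0.0694), with quantile normalization (0.112), with HT fitted alone (0.129), without untreated replicate 2 (0.0898) and without treated replicate 3 (0.0963). DCLRE1C, which encodes the nuclease Artemis, went from 6.83, 7.52 and 7.57 to 5.37, 5.47 and 5.23 FPKM in HT (-0.39 ± 0.07, adjusted p = 0.000405).

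The remaining members moved as follows. BRCA2, which acts on resected DNA, rose in OCI-LY3 (0.66 ± 0.12, adjusted p = 0.000134) and fell in OCI-LY19 (-0.39 ± 0.12, adjusted p = 0.00975), a fall that did not pass without treated replicate 1 (adjusted p = 0.0939) or with OCI-LY19 fitted alone (0.102). Its rise in HT (0.41) was lost without untreated replicate 1 (0.0573) and with quantile normalization (0.26, 0.151), and its fall in SUDHL5 (-0.32) was lost with any 1 of the 6 libraries left out (0.0614 to 0.119). RAD51D, of the same route, rose in HT (0.23; 0.05, adjusted p = 0.628, with quantile normalization, and adjusted p = 0.0529 with HT fitted alone) and fell in OCI-LY19 (-0.27); its rise in OCI-LY3 (0.15, adjusted p = 0.0426) became -0.07 under median-of-ratios and -0.15 under quantile scaling, and its libraries there overlapped. XRCC2, a further gene of homologous recombination, rose in OCI-LY3 (0.44 ± 0.12, adjusted p = 0.00412; 0.228 with median-of-ratios scaling) and fell in OCI-LY19 (-0.55 ± 0.12, adjusted p = 0.000557). That fall did not pass with OCI-LY19 fitted alone (adjusted p = 0.0576). FANCC fell in OCI-LY19 (-0.40) and SUDHL5 (-0.26), and FANCM, a translocase that recruits the Fanconi core complex, fell in OCI-LY19 (-0.43 ± 0.10, adjusted p = 0.00141). XRCC5 fell in OCI-LY3 (-0.33 ± 0.06, adjusted p = 5.27e-05; 0.0916 with quantile normalization), OCI-LY19 (-0.55 ± 0.06, adjusted p = 8.16e-08) and SUDHL5 (-0.29 ± 0.06, adjusted p = 0.000351), as its partner XRCC6 did, and its value in HT was -0.13 (adjusted p = 0.0759). HUS1, the third subunit of the clamp with RAD9A and RAD1, fell in OCI-LY3 (-0.31, with overlapping libraries) and SUDHL5 (-0.38) and had 0.04 in OCI-LY19. NHEJ1 fell in OCI-LY19 (-0.29 ± 0.06, adjusted p = 0.000509).

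**Figure D4:**
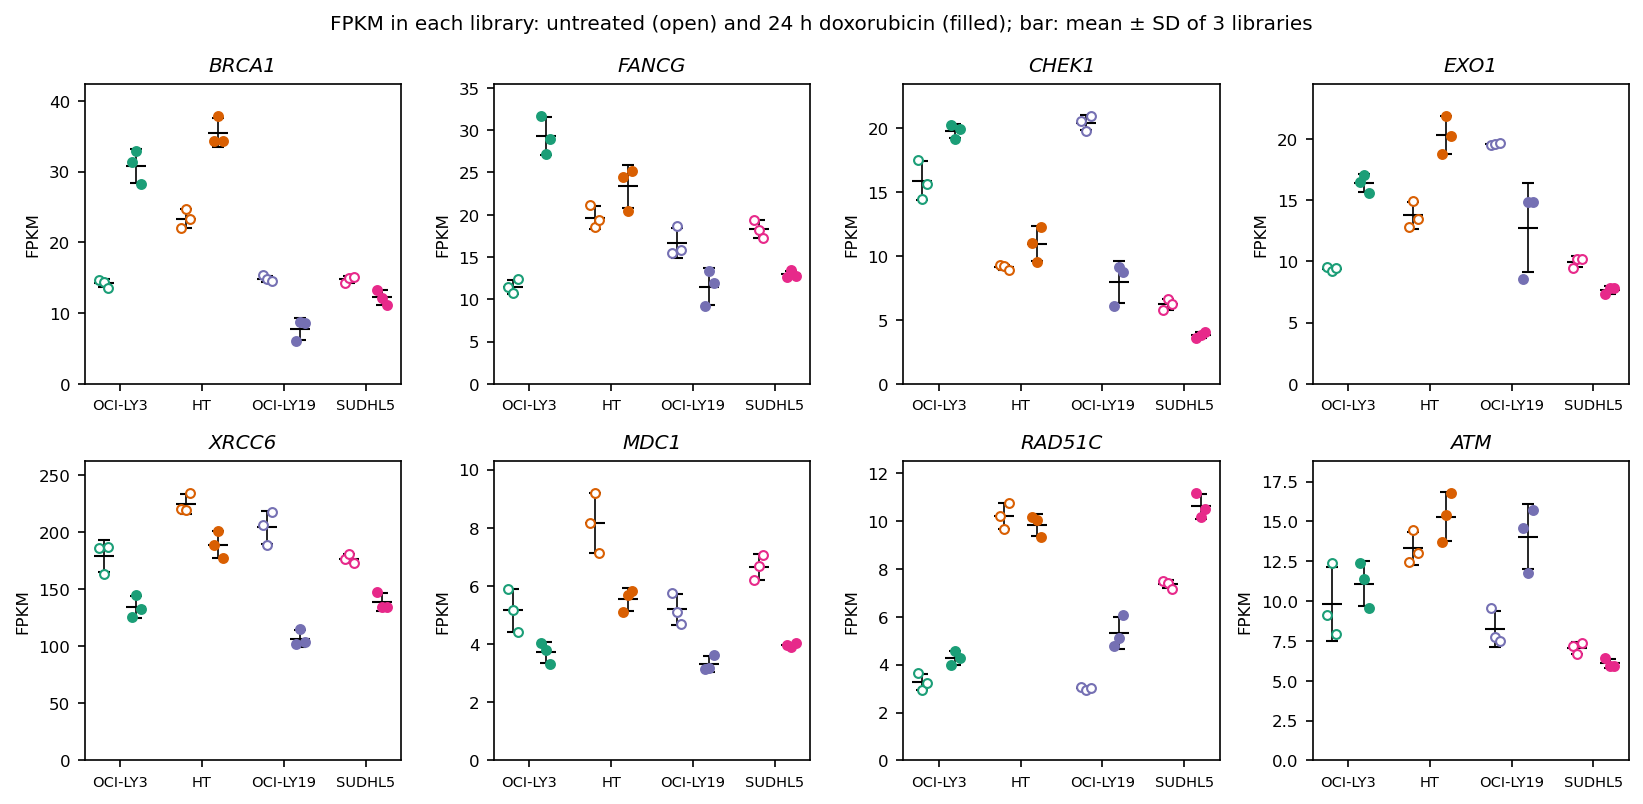
FPKM of 8 genes in each of the 24 libraries of the 4 lines, with untreated libraries as open and doxorubicin libraries as filled circles and bars for the mean ± SD of 3 libraries. BRCA1, FANCG and EXO1 lie higher after the drug in OCI-LY3 and lower in OCI-LY19, XRCC6 and MDC1 lie lower in all 4 lines, and RAD51C and ATM lie higher in OCI-LY19.

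Lists of related genes were read beside these counts. Among 62 further genes of break repair and checkpoints, 31 rose and 5 fell in OCI-LY3 (21 and 18 under median-of-ratios scaling), 17 rose and 6 fell in HT (9 and 7), 6 rose and 35 fell in OCI-LY19, and 3 rose and 29 fell in SUDHL5. TIMELESS, of the fork protection complex, rose the most in OCI-LY3 (1.20 ± 0.11, adjusted p = 3.55e-08). In HT the largest change was that of H2AX, the histone marked at breaks (-1.29 ± 0.40, adjusted p = 0.0187). PPM1D, the phosphatase that switches the damage signal off, rose in OCI-LY19 (1.72 ± 0.06, adjusted p = 1.63e-14) and SUDHL5 (1.59 ± 0.06, adjusted p = 2.49e-13). SMC6, a structural subunit of a chromosome maintenance complex, and GEN1, a resolvase, rose together in OCI-LY19 (2.07 ± 0.10, adjusted p = 2.6e-12 and 1.63 ± 0.14, adjusted p = 7.56e-09); they are neighbours on opposite strands that share 107 exon bases.

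Proliferation genes also moved with the drug. Replication genes had more rises than falls in OCI-LY3 and HT, and the reverse in OCI-LY19 and SUDHL5. The 45 repair genes did likewise on the FPKM scale. Under median-of-ratios scaling these repair genes had 11 rises and 14 falls in OCI-LY3 and 8 of each in HT. Mitosis genes had more falls than rises in all 4 lines. The part of proliferation genes in the results was not tested. Of 28 DNA replication genes, 20 rose and 2 fell in OCI-LY3, 12 rose and 3 fell in HT, 1 rose and 24 fell in OCI-LY19, and 2 rose and 17 fell in SUDHL5; median-of-ratios scaling left 12 rising and 2 falling in OCI-LY3, and 6 and 3 in HT. Of 21 mitosis genes, 3 rose and 6 fell in OCI-LY3, none rose and 6 fell in HT, 21 fell in OCI-LY19 and 20 fell in SUDHL5; under median-of-ratios scaling the OCI-LY3 count was none and 10. MKI67, the proliferation marker Ki-67, went from 62, 69.4 and 69.1 to 18.2, 28.2 and 31.5 FPKM in OCI-LY19 (-1.36 ± 0.15, adjusted p = 2.07e-07) and fell in SUDHL5 (-0.65 ± 0.15, adjusted p = 0.0017). Its values in OCI-LY3 (0.22 ± 0.15, adjusted p = 0.238) and HT (0.34 ± 0.15, adjusted p = 0.0954) did not pass.

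In the resistant derivative, taken off the drug, few of the genes passed the test, but the test missed many changes put into simulated data. It recovered 29% of simulated log2 changes of 0.5 and 71% of those of 1. For doxorubicin in OCI-LY19 these shares were 75% and 91%, and in HT 70% and 91%. Genes that did not pass here are therefore not shown to be unchanged. Of 44 genes, 3 were lower in OCI-LY19R than in OCI-LY19S and none higher, where 2.34% of all genes were lower and 3.11% higher in the same limma test. At an unadjusted p below 0.05, 11 were lower and 1 higher, but the share of all genes at that level was not counted. Libraries did not overlap for 18 of 44 genes against 32.7% of all genes. The median was -0.09 over the 44 genes and 0.05 over all genes. BLM libraries stood at 21.1, 18.5 and 21.7 FPKM in the parent, OCI-LY19S, and 11.6, 9.8 and 10.5 in OCI-LY19R (-0.88 ± 0.10, adjusted p = 0.00877). FANCI stood at 32.3, 24.3 and 25.2 FPKM in the parent and 16.4, 13.6 and 13.3 in the derivative (-0.87 ± 0.14, adjusted p = 0.021). PRKDC stood at 68, 79.9 and 79.5 FPKM and 55.7, 50.2 and 49 (-0.54 ± 0.10, adjusted p = 0.0329). For all 3 genes the highest resistant library was under the lowest parental one. Calls in this comparison rested on few libraries: without OCI-LY19R replicate 2 or without replicate 3 none of the 3 passed, without OCI-LY19S replicate 2 BLM alone did, and without OCI-LY19S replicate 1, which was apart from its partners in FANCI and PRKDC, 5 genes passed.

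The authors' deposited table gives its own comparison of these groups, from which 10 of the 46 genes were lower in OCI-LY19R and none higher at an adjusted p below 0.05. The share of all genes that passed in the authors' comparison was not counted, so this number has no baseline beside it. In the authors' deposited table the log2 fold changes were -1.01 for BLM, -0.98 for FANCI and -0.63 for PRKDC, followed by RAD51C and XRCC2 (-0.52 each), CHEK1 and RAD54L (-0.49 each), FANCC (-0.48), DCLRE1C (-0.41) and RBBP8 (-0.37). In the limma fit of FPKM values the other 7 had the same sign and did not pass: CHEK1 -0.41 ± 0.10, adjusted p = 0.0704, RAD54L -0.41 ± 0.12, adjusted p = 0.102, XRCC2 -0.40 ± 0.13, adjusted p = 0.138, RAD51C -0.33 ± 0.10, adjusted p = 0.119, FANCC -0.29 ± 0.10, adjusted p = 0.161, RBBP8 -0.29 ± 0.08, adjusted p = 0.0939 and DCLRE1C -0.28 ± 0.10, adjusted p = 0.14. Of these 10 genes, RAD51C had risen with the drug in OCI-LY19 and the other 9 had fallen, where 36 of all 45 tested genes fell. XRCC5 was the 1 gene higher at an unadjusted p below 0.05 (0.31 ± 0.12, adjusted p = 0.196), with parental libraries at 79.3, 86 and 107 FPKM and resistant ones at 113, 114 and 108. None of 28 replication genes and none of 21 mitosis genes passed in either direction. Medians were -0.099 over the replication genes and -0.34 over the mitosis genes, beside 0.05 over all genes. All mitosis genes had negative changes, from -0.56 to -0.045, and their part in the results was not tested. RIF1, which acts with TP53BP1, was lower (-0.58 ± 0.09, adjusted p = 0.0182), and SMC6 (1.41 ± 0.15, adjusted p = 0.00826) and GEN1 (0.45 ± 0.08, adjusted p = 0.0328) were higher among 60 further repair genes. MKI67 (-0.27 ± 0.17, adjusted p = 0.383) did not pass.

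**Figure D5:**
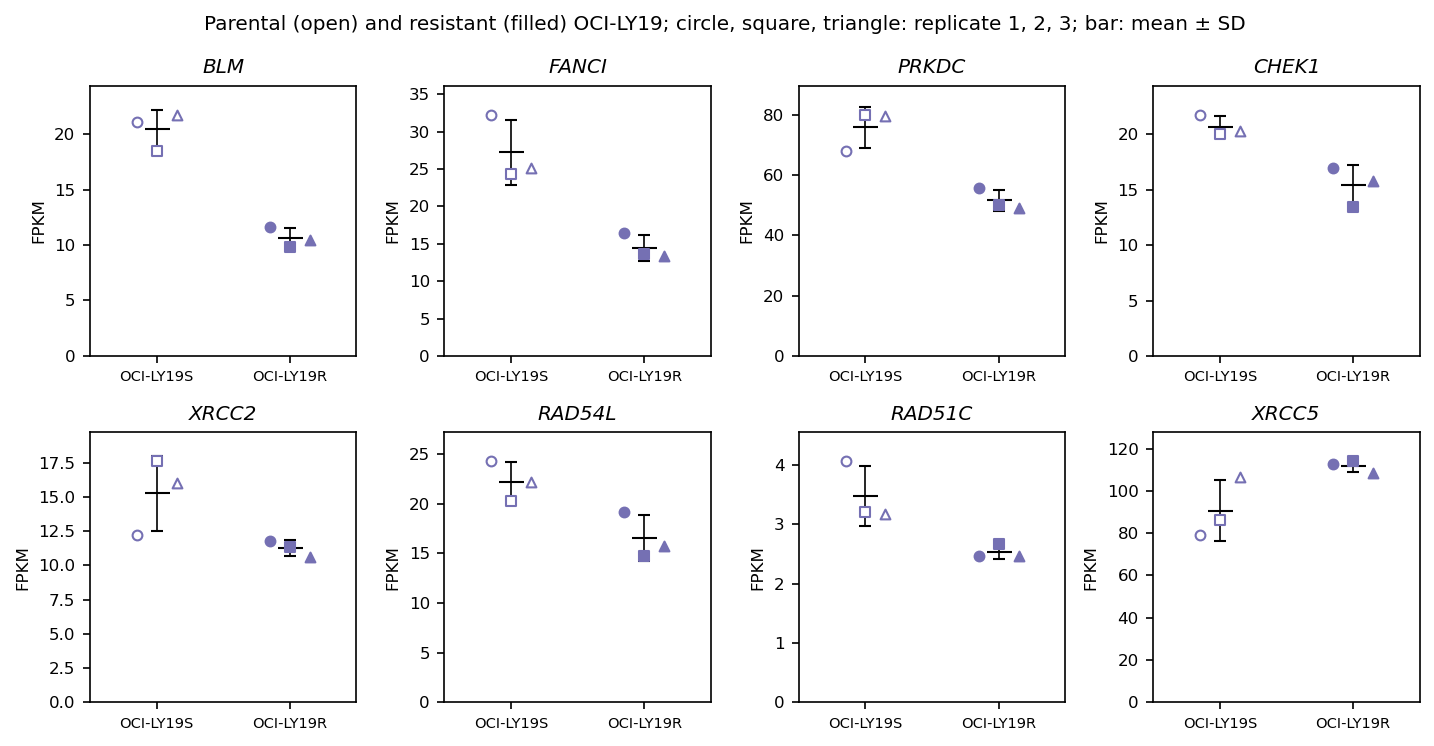
FPKM of 8 genes in the 3 OCI-LY19S (open) and 3 OCI-LY19R (filled) libraries, with circles, squares and triangles for replicates 1, 2 and 3 and bars for the mean ± SD. BLM, FANCI and PRKDC, which passed the test, are lower in all 3 resistant libraries, as are CHEK1, XRCC2, RAD54L and RAD51C, which did not pass, and XRCC5 lies higher in the resistant ones.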

How the data were processed

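RNA was sequenced after poly(A) selection with a directional kit. Trimmomatic, STAR, featureCounts and the hg38 build are named, without versions, in the submitters' processing notes. Which annotation release was counted, and with what strand setting, is not given in the sources used here. Both tables were deposited by the authors as FPKM values per gene, 1 of the 24 libraries of the 4 lines and 1 of the 6 OCI-LY19S and OCI-LY19R libraries, and no test was made across them. The second table also holds the authors' own comparison, per the file headers: a mean normalized signal, a log2 fold change with its error, a test statistic (a score), a p-value and an adjusted p-value.

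Levels were analysed as log2(FPKM + 1) with limma 3.58.1 in R 4.3.3 (lmFit and eBayes with trend). A gene was kept where 3 or more libraries of its table had an FPKM of 1 or higher, which left 17645 and 12785 genes. The 8 groups of the first table were fitted together (16 residual degrees of freedom) and the second table alone (4 degrees), with Benjamini-Hochberg adjustment over all genes tested and a threshold of 0.05; F tests and interaction contrasts used the same fit. Below a set read number, FPKM values were whole multiples of 1 read within 0.05 reads for 100% of values, which gave the read totals. Reads per gene were then solved within 0.01 reads for 44644 genes and not for 2. These reads were used for a limma-voom alternative chosen after seeing the data. The number of libraries, 3 a group, limits the precision. Replicates differed by more than sampling noise in every group, so none was merged.

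The genes and the lists were chosen with earlier results of these data known. Named with every library value were the 2 genes of each role with the largest change past the threshold in each comparison; others are named with fold and adjusted p, and from each list at most 3 genes plus MKI67; some items of the lists are not reported here. Treated and untreated libraries of HT with the same replicate number deviated together (r = 0.17, 0.32 and 0.35), so they were taken as paired by number and blocked values are given beside the HT results. The fitting code was tested on simulated data. Alternatives were another pseudocount (0.1), no filter or a minimum of 5 FPKM, median-of-ratios, quantile and TPM scaling, the replicate block, a tag of the library name as covariate, each line alone, and leaving out each library.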

Additional observations from a re-analysis of the deposited data

Results flagged for a closer look

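The response to doxorubicin differed among the 4 lines for 39 of 45 genes in limma's moderated F test, beside 72.2% of all genes tested. Of these, 24 genes also passed in opposite directions in at least 2 lines, a number that was 14 under median-of-ratios and 17 under quantile scaling, which drew them to attention here. The share of all genes with such opposite calls was not counted. Among the BRCA factors and partners and resection genes, the adjusted p of that F test was 2.65e-09 for BRCA1, 4.15e-08 for BRIP1, 4.45e-07 for RBBP8, 9.19e-07 for BLM, 1.2e-06 for RAD54L, 2.59e-06 for EXO1, 2.74e-06 for BARD1, 3.08e-05 for BRCA2, 6.3e-05 for RAD51D and 0.000109 for XRCC2. Among Fanconi anemia genes it was 1.63e-08 for FANCG, 2.88e-08 for FANCI, 4.71e-08 for FANCD2, 1.76e-06 for FANCA and 1.11e-05 for FANCC. Among checkpoint kinases and sensors it was 5.87e-08 for CHEK1, 8.22e-07 for CHEK2, 5.57e-06 for RAD9A and 0.00762 for ATR. Among mediators and end joining genes it was 4.93e-06 for LIG4, 9.48e-06 for POLQ, 1.06e-05 for RNF168, 0.000167 for XRCC4 and 0.00208 for RNF8. Dixon's test for an outlying library was not applied to these groups of 3; each library was left out in turn instead.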

How the results depend on the processing

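Scaling moved the upward counts most. With median-of-ratios scaling 11 genes rose in OCI-LY3 and 8 in HT; with quantile normalization 7 rose in HT and 18 had a lower response in OCI-LY19 than in SUDHL5. Fitted alone, HT had 8 rises. Without the filter 1 gene fell in OCI-LY19R, and without it or on the TPM scale 1 had a higher response in OCI-LY19 than in HT. Leaving out 1 library gave 9 to 14 rises in HT, 21 to 23 falls in SUDHL5 and 0 to 5 falls in OCI-LY19R. It also gave 2 to 5 and 1 to 3 higher responses in OCI-LY19 than in OCI-LY3 and HT. In OCI-LY3 the sign turned for MRE11 (-0.25) and RAD51D (-0.070) with median-of-ratios scaling, and for RAD51C (-0.0040), RAD51D (-0.15) and FANCC (-0.085) with quantile normalization; the cause was not tested. Upward calls over all genes went from 73.9% to 51.5% and 50.9% in OCI-LY3 under these scalings. Calls held in every alternative for 15 of 34 genes in OCI-LY3, 10 of 20 in HT, 32 of 40 in OCI-LY19, 21 of 28 in SUDHL5 and 0 of 3 in OCI-LY19R.

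With the replicate block, 26 genes rose and 11 fell in OCI-LY3, 38 fell in OCI-LY19, 28 in SUDHL5 and 2 in OCI-LY19R, where PRKDC was lost (adjusted p = 0.0904). Of the tests of single genes under the block, 254 kept their call, 12 gained and 3 lost one. Outside HT same-numbered libraries did not all deviate together (lowest r -0.012 in OCI-LY3, 0.036 in OCI-LY19 and -0.020 in SUDHL5), although in OCI-LY3 they share a library-name prefix, as replicates 1 and 3 of OCI-LY19 do; the labels do not say what this prefix stands for. The library-name tag could not be used for untreated levels or OCI-LY19R.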
